A study of Mus musculus with 8 samples.

Results

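The genes described here are 10 regulators of mitochondrial biogenesis, picked by symbol from the 75078 Ensembl genes of the count table, in which all 10 were found. They are the PGC-1 coactivators Ppargc1a, Ppargc1b and Pprc1, the nuclear factors Esrra, Nrf1 and Gabpa, and the mitochondrial transcription factors Tfam, Tfb1m, Tfb2m and Polrmt. Levels of polyadenylated RNA were measured in the αTC1-6 line, cloned mouse cells of alpha cell type that make glucagon, derived from a tumour of a mouse carrying a viral oncogene under a glucagon gene promoter. The tested cells received a plasmid that overexpresses Yy1 (4 libraries, sample numbers 45, 46, 47 and 48), and the control cells received an empty plasmid (4 libraries, numbers 31, 32, 33 and 34). Transfection followed 24 h after plating in both groups, the medium was DMEM (11 mM by its label), and cells were treated alike as far as the labels tell. Whether the libraries came from separate cultures is not given, so the error behind each p-value is that between libraries and may be technical only.

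Mitochondria are built from proteins of nuclear genes and a few of mitochondrial DNA, and the PGC-1 coactivators join both. They do not bind DNA themselves. They are recruited by factors such as nuclear respiratory factor 1 (Nrf1, not the antioxidant factor Nfe2l1), the ETS factor GABP and the orphan receptor ERRα (Esrra), which switch on respiratory chain genes and the mitochondrial transcription machinery. In mouse skeletal muscle YY1 is known to bind PGC-1α under the control of the kinase mTOR, and the comparison asks whether extra Yy1 moves these genes in alpha cells. In bulk RNA, a lower level per cell and fewer cells that carry it cannot be told apart.

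Promoter sequences are shown for 4 of the regulators that hold a short motif of a factor in this circuit. They come from RefSeq on build GRCm38.p6, run 5′ to 3′ from 250 bases before to 50 bases after the annotated start, and capitals mark the motifs. The motifs were AANATGGCG and its shorter core AANATGG for YY1, GCGCATGCG for NRF-1, CCGGAAG for GABP, TGACGT for CREB and TCAAGGTCA for ERRα, each searched on both strands; the 2 YY1 motifs overlap by construction.
Gabpa promoter, chr16:84834874-84835173, plus strand: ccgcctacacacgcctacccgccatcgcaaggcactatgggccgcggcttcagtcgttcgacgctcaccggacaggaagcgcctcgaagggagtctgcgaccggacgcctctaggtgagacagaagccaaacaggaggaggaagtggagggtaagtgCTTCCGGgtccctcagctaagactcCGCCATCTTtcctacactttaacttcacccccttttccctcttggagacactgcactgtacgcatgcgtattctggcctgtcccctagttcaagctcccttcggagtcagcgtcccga
Tfam promoter, chr10:71237995-71238294, minus strand: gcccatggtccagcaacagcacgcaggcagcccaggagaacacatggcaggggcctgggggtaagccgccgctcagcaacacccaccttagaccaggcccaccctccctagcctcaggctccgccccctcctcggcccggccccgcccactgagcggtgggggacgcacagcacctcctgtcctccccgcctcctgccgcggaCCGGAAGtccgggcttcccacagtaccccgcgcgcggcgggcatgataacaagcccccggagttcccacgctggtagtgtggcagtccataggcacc
Tfb2m promoter, chr1:179546227-179546526, minus strand: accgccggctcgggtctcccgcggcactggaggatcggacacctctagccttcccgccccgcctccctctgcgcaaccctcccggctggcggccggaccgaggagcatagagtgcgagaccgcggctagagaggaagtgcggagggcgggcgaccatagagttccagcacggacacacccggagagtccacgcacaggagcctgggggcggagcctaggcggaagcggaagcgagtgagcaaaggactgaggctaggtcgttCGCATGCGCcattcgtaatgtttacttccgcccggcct
Ppargc1a promoter, chr5:51567676-51567975, minus strand: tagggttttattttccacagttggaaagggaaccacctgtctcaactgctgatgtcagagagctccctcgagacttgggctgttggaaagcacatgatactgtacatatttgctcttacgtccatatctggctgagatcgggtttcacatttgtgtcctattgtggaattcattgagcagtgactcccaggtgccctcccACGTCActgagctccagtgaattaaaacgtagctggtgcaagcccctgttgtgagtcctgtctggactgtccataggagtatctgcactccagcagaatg

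Of 10 windows, belonging to 9 of the regulators, only that of Gabpa held a YY1 motif. It lay from -68 to -60 relative to the start, on the opposite strand. Ppargc1b had no window and was not searched. The longer YY1 motif occurred in 2.38% and the shorter in 16.1% of all 32851 promoter windows. Gabpa also held the GABP motif, from -93 to -87, as did Tfam, from -47 to -41, and Polrmt (sequence not shown), from -43 to -37. That motif occurred in 8.86% of all windows. Tfb2m held the NRF-1 motif just after its start, from 13 to 21, a motif found in 1.75% of all windows. The Ppargc1a window held the CREB motif from -50 to -45, against 7.51% of all windows, and 0 of the 10 windows held the ERRα motif, against 0.423%. These are matches of letters. Binding was not measured.

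The plasmid check and the cell check come first. Yy1 stood at 5225 ± 463 CPM (counts scaled to a common library size with TMM factors) with the Yy1 plasmid, lowest 4807, and at 175 ± 5.33 CPM with the empty plasmid, highest 181 (SD, n = 4 each). Its log2 fold change was 4.90 (SE 0.0619; edgeR quasi-likelihood test, adjusted p = 7.38e-24). Reads of the plasmid and of the cells' own gene cannot be separated. Summed counts were 29680177 to 33347445 per library with the Yy1 plasmid and 20679804 to 30570601 with the empty plasmid. Gcg, which encodes glucagon, stood at 21259 ± 372 CPM with the Yy1 plasmid and 21197 ± 546 CPM with the empty plasmid (SD, n = 4 each), whereas Ins1, Ins2, Ucn3 and Ppy, of 12 markers of other islet cells, had 0 counts in all 8 libraries. Of the other islet markers 4 were tested, and their list summed to 49.7 to 59.7 CPM with the Yy1 plasmid and 53.5 to 58.1 CPM with the empty plasmid, mostly from the beta cell factor gene Nkx6-1, at 51.0 and 54.7 CPM on average. The tested Iapp, Mafa and Hhex averaged under 1 CPM with either plasmid. The 20 markers of acinar, duct, stromal, endothelial and immune cells summed to 22.5 to 24.8 CPM with the Yy1 plasmid and to 20.6 to 22.4 CPM with the empty plasmid, so these sums did not overlap; their part in the results below was not tested. Of the 20, 6 were abundant enough to test and 0 of them passed by edgeR, DESeq2 or limma-voom. By edgeR 0.515% of all tested genes passed. An unadjusted p under 0.05 by edgeR was found for 2 of the 6, beside 5.42% of all tested genes. The groups were apart for 3 of the 6, beside 3.95% of all tested genes. These were Sox9 and Spp1, higher with the Yy1 plasmid, and Cd68, lower with it. Cd68 was low, at 0.811 CPM on average with the Yy1 plasmid and 1.14 CPM with the empty plasmid. Of acinar genes, Prss1 had 0 counts and Cela1 averaged 6.59 CPM with the Yy1 plasmid and 6.45 CPM with the empty plasmid.

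None of the 10 regulators passed the test between the plasmids. All 10 were abundant enough to be tested, and edgeR called 0 of them at an adjusted p under 0.05, against 0.515% of the 15916 genes tested. Called higher were 0 of the 10, against 0.496% of all tested genes, and called lower 0, against 0.0188%. Before adjustment, 0 of the 10 had a p under 0.05 by edgeR, against 5.42% of all tested genes, and DESeq2 and limma-voom also called 0, with 0 at an unadjusted p under 0.05. The libraries of the groups overlapped for all 10, while they were apart for 3.95% of all tested genes. The adjusted p of the regulators ran from 0.993 to 0.998 (edgeR). Fitted log2 fold changes were positive for 7 and negative for 3, from -0.02 to 0.04, with a median of 0.013 beside a median of -0.0025 over all tested genes. Of all tested genes, 7730 had positive and 8186 negative values.

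**Figure D1:**
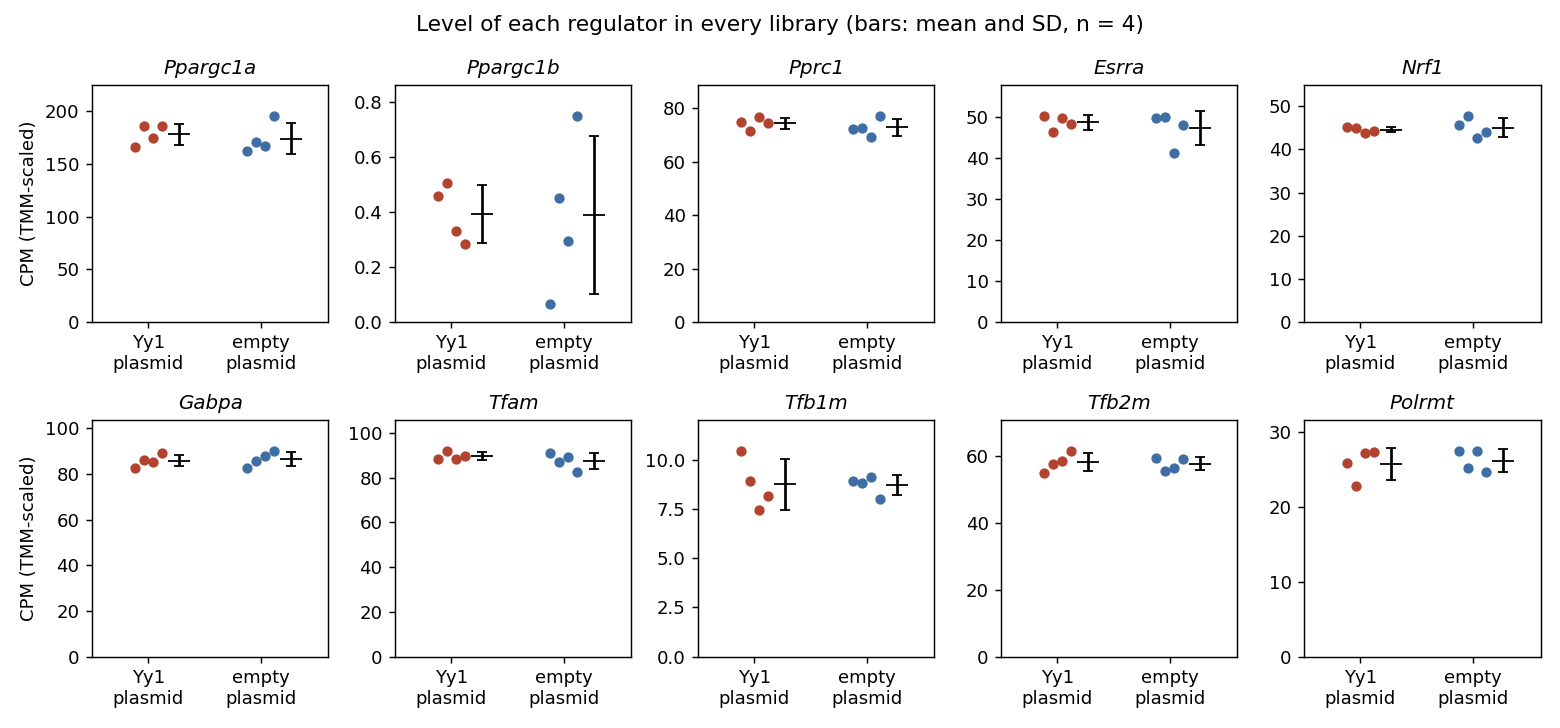
Level of each regulator in CPM (y axes, each from 0) in the 4 Yy1 plasmid libraries (red) and the 4 empty plasmid libraries (blue), with mean and SD as black bars. The groups overlap in every panel, and Ppargc1b, at most 0.751 CPM, is the only regulator under 1 CPM.

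The coactivator best known for driving mitochondrial biogenesis, PGC-1α, was well represented in these cells. Ppargc1a (ENSMUSG00000029167) had 166, 186, 174 and 186 CPM with the Yy1 plasmid and 162, 171, 167 and 196 CPM with the empty plasmid, listed by ascending sample number. Both the lowest and the highest value belonged to empty plasmid libraries, so the Yy1 plasmid libraries lay wholly within the range of the others. The means were 178 ± 9.88 and 174 ± 14.9 CPM for the Yy1 and the empty plasmid (SD, n = 4 each), and the log2 fold change was 0.03 (SE 0.0544, 95% interval -0.08 to 0.15). On a linear scale that interval runs from -5.49% to 10.8%. The gene's promoters and splice forms cannot be separated in a count per gene.

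Its close relative PGC-1β was barely detected. Ppargc1b (ENSMUSG00000033871) had 15, 15, 11 and 9 counts with the Yy1 plasmid and 2, 12, 6 and 21 counts with the empty plasmid. The highest and the lowest library were again both empty plasmid libraries, and the 2 counts of number 31 lie under the limit of 3 counts that a count of 0 allows. In all there were 50 Ppargc1b counts over the 4 Yy1 plasmid libraries and 41 over the 4 empty plasmid libraries. The log2 fold change of 0.013 (SE 0.471) has a 95% interval from -0.97 to 0.99, or -48.9% to 99.2% on a linear scale. A change anywhere within those limits would fit these few counts.

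Pprc1 (ENSMUSG00000055491) encodes PRC, the growth-regulated member of the family, and varied least of the 3 in percent. It had 74.9, 71.7, 76.6 and 74.7 CPM with the Yy1 plasmid and 72.2, 72.8, 69.3 and 77.2 CPM with the empty plasmid. Once more 1 empty plasmid library, number 34, was the highest and another, number 33, the lowest. The log2 fold change was 0.03 (SE 0.0434, 95% interval -0.06 to 0.12).

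The nuclear receptor and the DNA-binding factors that recruit the coactivators showed the same overlap. Esrra (ENSMUSG00000024955), which encodes ERRα, had 50.2, 46.2, 49.8 and 48.3 CPM with the Yy1 plasmid and 49.8, 49.8, 41.1 and 48.0 CPM with the empty plasmid. Empty plasmid 33 was low, and the other 3 empty plasmid libraries lay between 48.0 and 49.8 CPM, inside the range with the Yy1 plasmid. The log2 fold change of Esrra was 0.04 (SE 0.0551, 95% interval -0.07 to 0.15).

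Nrf1 (ENSMUSG00000058440) encodes a factor that binds palindromes in the promoters of respiratory genes, such as the motif in Tfb2m above. It had 45.1, 44.9, 43.8 and 44.4 CPM with the Yy1 plasmid and 45.8, 47.8, 42.6 and 44.2 CPM with the empty plasmid. The 4 Yy1 plasmid values, with a coefficient of variation of 1.34%, lay inside the range of the empty plasmid values, whose coefficient was 4.96%. The log2 fold change was -0.019 (SE 0.0471, 95% interval -0.12 to 0.08).

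Gabpa (ENSMUSG00000008976) encodes the DNA-binding subunit of GABP, and its promoter carries the YY1 motif shown above. It had 82.8, 86.4, 85.5 and 89.1 CPM with the Yy1 plasmid and 82.9, 85.6, 87.9 and 90.3 CPM with the empty plasmid. The ranges nearly coincide, and the log2 fold change was -0.012 (SE 0.0419, 95% interval -0.10 to 0.08). The ratio of Gabpa to Nrf1, which does not depend on how libraries are scaled, was 1.93 ± 0.072 with the Yy1 plasmid and 1.93 ± 0.147 with the empty plasmid (SD, n = 4 each). The subunits that give GABP its activating part did not pass either: the log2 fold changes were -0.03 for Gabpb1 (SE 0.0462) and -0.05 for Gabpb2 (SE 0.0384).

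The mitochondrial transcription machinery begins with Tfam (ENSMUSG00000003923), which packages mitochondrial DNA and bends its promoters. It had 88.4, 92.1, 88.4 and 89.6 CPM with the Yy1 plasmid and 90.9, 86.9, 89.3 and 82.6 CPM with the empty plasmid. Empty plasmid 34 was lowest and Yy1 plasmid 46 highest, with the other values between. Tfam had the smallest p of the 10 regulators, with a log2 fold change of 0.04 (SE 0.0416, 95% interval -0.05 to 0.12; edgeR adjusted p = 0.993). By exact permutation of its log2(CPM + 1) values the two-sided p was 0.314, where 4 against 4 libraries cannot go below 0.0286.

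Polrmt (ENSMUSG00000020329) encodes the mitochondrial RNA polymerase, which also makes the primers for replication. It had 25.8, 22.7, 27.2 and 27.3 CPM with the Yy1 plasmid and 27.4, 25.1, 27.5 and 24.6 CPM with the empty plasmid. Yy1 plasmid 46 was the lowest of the 8, and the other 3 of that group lay inside the range with the empty plasmid. The log2 fold change was -0.02 (SE 0.0647, 95% interval -0.15 to 0.11). Within libraries, the ratio of Tfam to Polrmt was 3.51 ± 0.377 with the Yy1 plasmid and 3.35 ± 0.0841 with the empty plasmid (SD, n = 4 each), and the wider spread came from Yy1 plasmid 46, at 4.06.

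Tfb2m (ENSMUSG00000026492) encodes the factor that melts mitochondrial promoters together with the polymerase. It had 55.0, 57.5, 58.4 and 61.6 CPM with the Yy1 plasmid and 59.3, 55.5, 56.3 and 59.2 CPM with the empty plasmid. The lowest and the highest library both carried the Yy1 plasmid, and the log2 fold change was 0.012 (SE 0.0458, 95% interval -0.08 to 0.11).

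Tfb1m (ENSMUSG00000036983), a paralog that methylates ribosomal RNA of the mitochondrial small subunit, was less precise. It had 10.5, 8.94, 7.45 and 8.14 CPM with the Yy1 plasmid and 8.91, 8.83, 9.15 and 8.01 CPM with the empty plasmid. Yy1 plasmid 45 and 47 were the highest and the lowest of all. Its log2 fold change was 0.0059 (SE 0.101, 95% interval -0.20 to 0.21). The deposited Tfb1m value lay more than 0.01 from a whole number in 8 of 8 libraries, so that part of the reads was divided by the estimate. The same held for Esrra in 6 libraries, Ppargc1a in 4, Tfam in 2 and Tfb2m in 1, and for 0 libraries of the other 5 regulators. The ratio of Tfb2m to Tfb1m was 6.77 ± 1.18 with the Yy1 plasmid and 6.62 ± 0.557 with the empty plasmid (SD, n = 4 each).

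The 95% intervals give the range of changes that would fit these libraries, under an error between libraries that may be technical only. They are not the limits of what the test could call. Calls were adjusted over 15916 genes, so an interval without 0 did not ensure a call. For the 8 regulators other than Ppargc1b and Tfb1m, the 95% intervals ran from -0.154 at the lowest to 0.155 at the highest on the log2 scale. On a linear scale these limits are -10.1% and 11.3%. With Tfb1m the limits were -0.20 and 0.21. The median SE of the 10 was 0.0508, beside 0.0713 over all tested genes and 0.0534 over the 10356 tested coding genes with an average log2 CPM of at least 2. Coefficients of variation over all 8 libraries ran from 3.14% for Gabpa to 10.4% for Tfb1m, and to 51.2% for Ppargc1b, around a median of 5.29% over those coding genes.

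**Figure D2:**
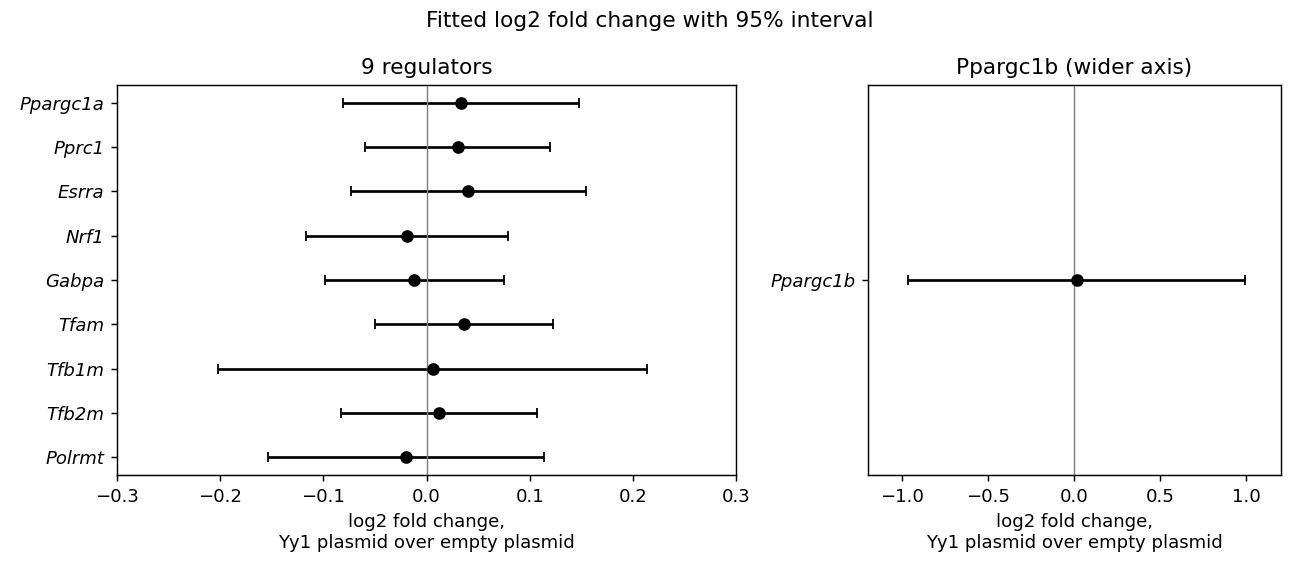
Fitted log2 fold change of each regulator, Yy1 plasmid over empty plasmid (points), with its 95% interval (bars), on a narrow axis for 9 regulators and on a wider one for Ppargc1b. Every interval includes 0, and only those of Tfb1m and Ppargc1b reach past 0.2 on either side.

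The order of levels among the regulators was read per length of transcript, in CPM per kb, and depended on the length used. With the median length of a gene's coding transcripts, Pprc1 came first, at 132 ± 3.66 CPM per kb with the Yy1 plasmid and 129 ± 5.83 with the empty plasmid (SD, n = 4 each). With the longest transcript it stood at 14.2 ± 0.393 and 13.9 ± 0.627 CPM per kb for the Yy1 and the empty plasmid, because its annotated coding transcripts have a median of 564 bases and a longest form of 5246 bases. Ppargc1a came first with the longest transcript, at 27.6 ± 1.53 CPM per kb with the Yy1 plasmid and 26.9 ± 2.31 with the empty plasmid.

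Some of the order held for every length tried, in both groups, without overlap of libraries. Ppargc1a was above 6 regulators, namely Nrf1, Gabpa, Tfb2m, Tfb1m, Polrmt and Ppargc1b, and its place relative to Pprc1, Esrra and Tfam was not settled. Ppargc1b was below all 9 others, at 0.113 ± 0.03 CPM per kb with the Yy1 plasmid and 0.112 ± 0.0824 with the empty plasmid by the median length. Polrmt and Tfb1m were each below 7 others and above Ppargc1b, with no settled order between them. By the median length Polrmt had 7.28 ± 0.606 CPM per kb with the Yy1 plasmid and 7.39 ± 0.424 with the empty plasmid, against 6.24 ± 0.927 and 6.22 ± 0.356 for Tfb1m. Neighbours whose ranges overlapped by the median length were Esrra with Ppargc1a and Gabpa with Tfb2m, in both groups, and Polrmt with Tfb1m, with the Yy1 plasmid.

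**Figure D3:**
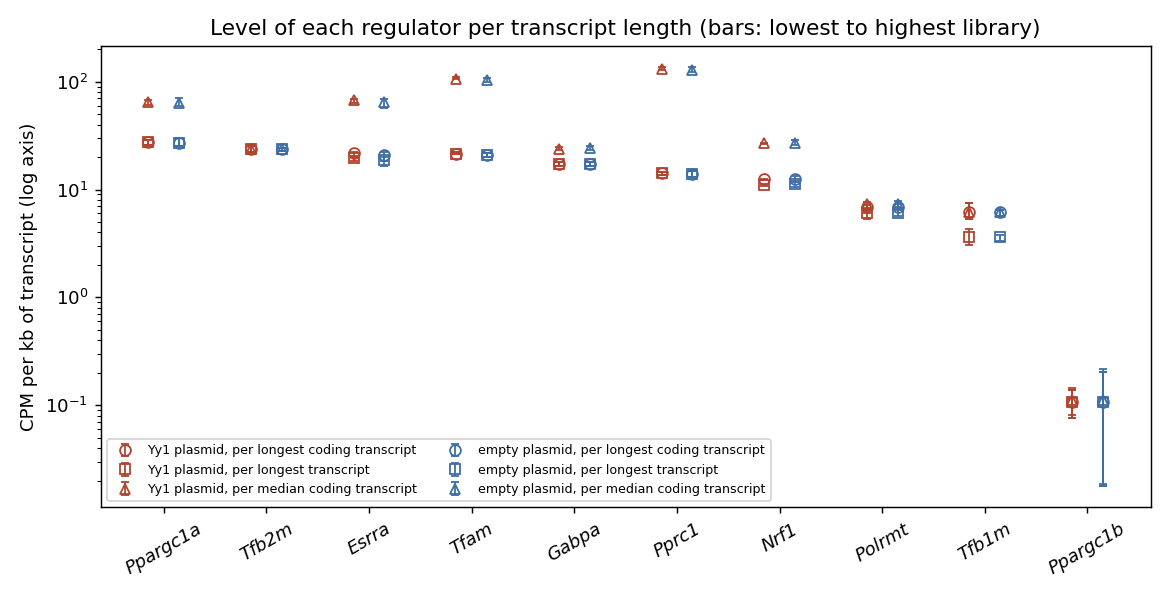
CPM per kb of transcript (log axis) of each regulator with the Yy1 plasmid (red) and the empty plasmid (blue), for 3 ways to set the length (symbols), with bars from the lowest to the highest library. Red and blue lie together for every regulator, Ppargc1b lies far below the rest, and the triangles of Pprc1, Tfam and Esrra show how far the length moves a level.

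Across the 8 libraries, the other regulators did not follow Ppargc1a as a set. Pearson's r of their log2 CPM with that of Ppargc1a ran from -0.53, for both Tfb1m and Polrmt, to 0.80 for Gabpa, and was 0.64 for the sparse Ppargc1b. Of 10355 coding genes with an average log2 CPM of at least 2, the 3 most like Ppargc1a over these 8 libraries were Mrs2, which encodes a magnesium channel of the inner mitochondrial membrane (r = 0.97), Tnks, which encodes tankyrase (r = 0.97), and Zfp148, a zinc finger factor (r = 0.96). These are descriptions of 8 points that share library preparation and depth, picked as the highest of many. The range of Ppargc1a was itself only 162 to 196 CPM.

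The rest of the pathway was read from 6 lists with 154 distinct tested genes besides Yy1. By edgeR 0 of the 154 passed, beside 0.515% of all tested genes. An unadjusted p under 0.05 by edgeR was found for 6 of the 154, beside 5.42% of all tested genes. DESeq2 and limma-voom called 0 in each list as well. Over the 154 genes the log2 fold change had a median of 0.0027. The counts of positive values given below for each list stand beside 7730 positive of all 15916 tested genes.

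Partners and regulators of the PGC-1 coactivators numbered 41 tested of 43, of which 23 had positive and 18 negative log2 fold changes, with a median of 0.0044. The smallest p belonged to Bhlhe40, a circadian repressor, with 225 ± 6.32 CPM with the Yy1 plasmid and 245 ± 16.9 CPM with the empty plasmid (SD, n = 4 each; log2 fold change -0.13, SE 0.045, edgeR adjusted p = 0.56). Sirt1, a deacetylase that activates PGC-1α, had 29.2 ± 1.07 and 31.7 ± 1.74 CPM with the Yy1 and the empty plasmid (SD, n = 4 each; log2 fold change -0.12, SE 0.0551, edgeR adjusted p = 0.909). For the corepressor gene Nrip1 the log2 fold change was 0.12 (SE 0.0622), and for Prkag1, a subunit of the energy sensor AMPK, it was -0.08 (SE 0.0454). Mtor, the kinase that governs the pairing of YY1 with PGC-1α in muscle, had 111 ± 3.93 CPM with the Yy1 plasmid and 109 ± 4.66 CPM with the empty plasmid (SD, n = 4 each), a log2 fold change of 0.018 (95% interval -0.07 to 0.11). Log2 fold changes were -0.0088 for Prkaa1 and 0.11 for Prkaa2, the catalytic AMPK subunits, 0.03 for Hcfc1, a cofactor of PGC-1 proteins and GABP, and 0.04 for Esrrg, which encodes a relative of ERRα.

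Genes for the replication and packaging of mitochondrial DNA were all tested, 26 of 26, with a median log2 fold change of -0.017 and 11 positive. Lig3, the ligase that seals mitochondrial DNA, had 25.0 ± 1.1 CPM with the Yy1 plasmid and 22.8 ± 1.8 CPM with the empty plasmid (SD, n = 4 each; log2 fold change 0.14, SE 0.0632, edgeR adjusted p = 0.895). The replicative polymerase gene Polg had a log2 fold change of -0.04 (SE 0.0425), its accessory subunit gene Polg2 of -0.22 (SE 0.129), the helicase gene Twnk of -0.017 (SE 0.0504) and the single-strand binding protein gene Ssbp1 of -0.06 (SE 0.056). Dna2, a nuclease and helicase gene, had -0.07 (SE 0.045), and Mgme1, a nuclease gene, had -0.07 (SE 0.0575).

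Mitochondrial transcription and RNA processing was covered by 29 tested genes of 30, with a median log2 fold change of -0.03 and 11 positive. Tefm, the elongation factor of the polymerase, had 6.37 ± 0.759 CPM with the Yy1 plasmid and 6.65 ± 0.306 CPM with the empty plasmid (SD, n = 4 each; log2 fold change -0.06, SE 0.104). Lrpprc, which stabilises mitochondrial messages, had 309 and 299 CPM on average with the Yy1 and the empty plasmid (log2 fold change 0.04, SE 0.0412). The members with the smallest p were Hsd17b10, part of the mitochondrial RNase P (0.11, SE 0.0625), Mterf4 (-0.11, SE 0.0655), Fastkd1 (0.10, SE 0.0597) and Mrm1, a ribosomal RNA methylase (-0.11, SE 0.0769).

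Classical targets of NRF-1 and GABP, mostly respiratory chain genes, had 25 tested members of 25, with a median log2 fold change of 0.015 and 15 positive. Among cytochrome oxidase subunits the log2 fold changes ran from -0.06 for Cox5b (SE 0.106) and -0.02 for Cox5a (SE 0.0906) to 0.09 for Cox6c (SE 0.0461) and 0.10 for Cox4i1 (SE 0.0475). Uqcrfs1, the Rieske protein of complex III, had -0.08 (SE 0.0441), and Atp5g2, a ring subunit of ATP synthase, had -0.24 (SE 0.164).

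Targets of PGC-1α and ERRα in other tissues were tested for 20 of 25, with a median log2 fold change of 0.03 and 15 positive. Ucp1, the uncoupling protein of brown fat, and Ucp3, Fndc5, Perm1 and Slc2a4, genes of muscle, were too low to test. Cpt1b, the muscle form of the carnitine palmitoyltransferase, had 4.47, 5.71, 4.39 and 4.73 CPM with the Yy1 plasmid and 5.83, 6.09, 6.12 and 6.90 CPM with the empty plasmid. All 4 Yy1 plasmid libraries lay below the lowest empty plasmid library, although by a narrow margin, and the gene did not pass (log2 fold change -0.37, SE 0.114, edgeR adjusted p = 0.327). The groups were apart for 1 of the 20 tested genes of this list, beside 3.95% of all tested genes. Pdk4, a kinase that restrains pyruvate oxidation, was low, at 1.26 ± 0.282 CPM with the Yy1 plasmid and 1.62 ± 0.18 CPM with the empty plasmid (SD, n = 4 each; log2 fold change -0.36, SE 0.213). Vegfa, an angiogenic factor that is also a hypoxia gene, had -0.13 (SE 0.0461; edgeR adjusted p = 0.572). Mdh2, of the TCA cycle, had 0.05 (SE 0.0405).

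The products of the machinery, the 13 protein genes of mitochondrial DNA, together made up 7.75% of scaled counts with the Yy1 plasmid and 7.88% with the empty plasmid. Their sum ran from 75696 to 80230 CPM in Yy1 plasmid libraries and from 74018 to 82806 CPM in empty plasmid libraries, so the groups overlapped. Log2 fold changes of the 13 had a median of -0.019 and ran from -0.32 for mt-Nd6 to 0.24 for mt-Nd3 (SE 0.321). mt-Nd6, the one protein gene read from the light strand, had 40.3, 44.8, 50.2 and 44.4 CPM with the Yy1 plasmid and 54.3, 53.8, 69.9 and 46.9 CPM with the empty plasmid. Empty plasmid 33 was high and empty plasmid 34 lay among the Yy1 plasmid libraries (SE 0.129, edgeR adjusted p = 0.906). Whether counting used strand is not stated, so reads of mt-Nd6 and of its opposite strand may not be separated. Of the heavy strand, mt-Co1 had -0.06 on the same log2 scale (SE 0.0508), mt-Nd5 had -0.06 (SE 0.0541) and mt-Cytb had -0.05 (SE 0.0467). Poly(A) selection limits what these levels say of mitochondrial transcription, because mitochondrial messages carry short tails.

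**Figure D4:**
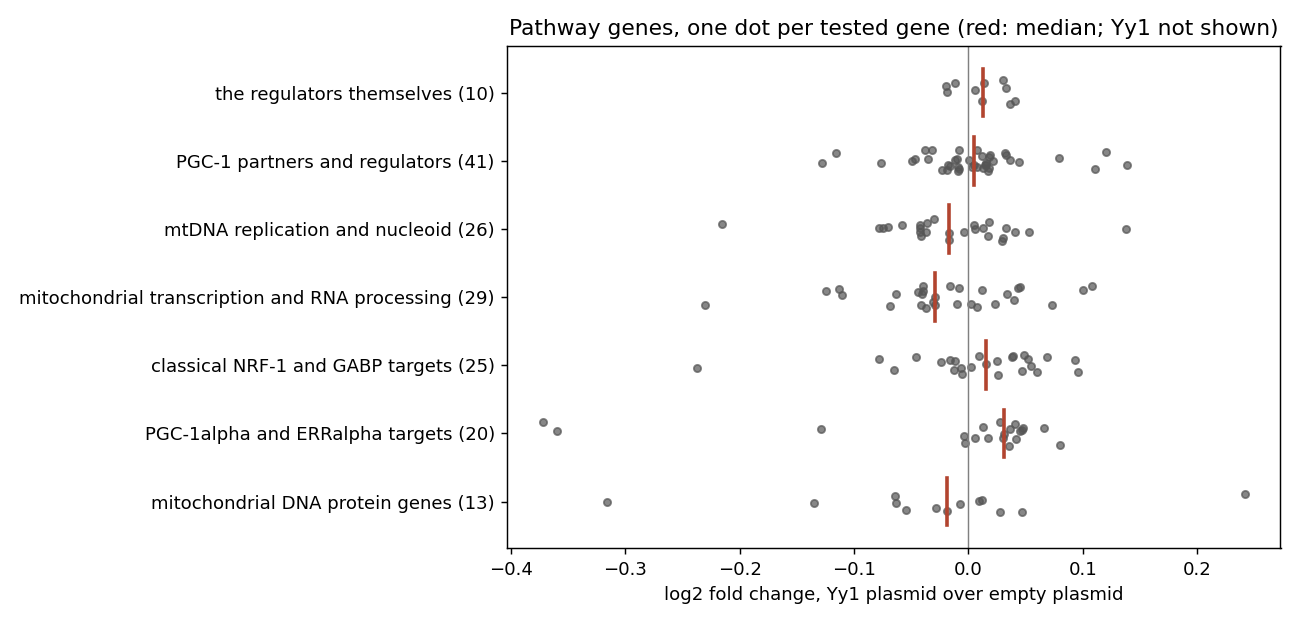
Log2 fold change, Yy1 plasmid over empty plasmid (x axis), of each tested gene (dots) in 6 pathway lists and of the 10 regulators, with the number tested in parentheses and the median in red. The regulators run from about -0.02 to about 0.04, and the dots past -0.3 are Cpt1b, Pdk4 and mt-Nd6, none of which passed the test.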

How the data were processed

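Polyadenylated RNA was extracted with Trizol and columns and made into strand-specific libraries, per the labels' protocols. Tools named in the submitters' processing notes are fastp and kallisto, with build GRCm39; versions, and how transcripts were summed to genes, are not given in the sources used here. The table deposited by the authors holds expected counts, that is, unscaled estimates of reads per gene, for 75078 Ensembl IDs in 8 columns, tied to samples by their descriptions. They were rounded to whole numbers. Symbols came from a reference list of gene names, which matched 48278 IDs. Transcript lengths and coding types came from GENCODE mouse release M21. That release belongs to an older build than the counts, as do the RefSeq promoters. Coordinates are therefore given only for the promoters, on their own build, GRCm38.p6.

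The test was the robust quasi-likelihood F-test of edgeR 4.0.16 in R 4.3.3, with TMM factors, after filterByExpr had removed low genes (those kept reach, in at least 4 libraries of any group, the CPM that 10 counts have at the median library size, and 15 counts in total). Its p-values were adjusted by Benjamini-Hochberg over 15916 genes and called at 0.05. The SE was the size of the log2 fold change divided by the square root of F, and intervals used the t quantile of the fit. The step was tested on simulated data. Single genes were compared by exact permutation over 70 arrangements. Correlations used log2 CPM with edgeR's moderated prior count. Alternatives were RLE, upper-quartile and no scaling, Yy1 left out, 2 other filters, DESeq2 1.42.0, limma-voom 3.58.1 and each library left out. The longest coding transcript as a length was added after seeing the data. Intervals and limits cover counting error only where they rest on counts, since reads are not independent molecules. Replicate pairs differed by more than sampling noise (chi-square per degree of freedom 3.05 to 15.8). The highest values, 10.9, 13.1 and 15.8, were those of the pairs with empty plasmid 33, the library with the fewest counts. All other pairs had at most 7.25.

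The members and lists were chosen with earlier results of these data known. Named besides the 10 regulators, Yy1 and Gcg were up to 4 members of each pathway list with the smallest p and genes with roles beside the regulators; other names, such as mt-Nd3 and the genes too low to test, were chosen after their values were seen.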

Additional observations from a re-analysis of the deposited data

Results flagged for a closer look

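Of 118 groups of 4 libraries checked over 59 named genes, 6 held 1 library far from the other 3 by Dixon's ratio, about as many as the 1 in 20 that chance gives, and 0 of these 6 were among the 20 groups of the regulators. Uqcrfs1 stood at 134 CPM in Yy1 plasmid 45, against 120 to 121 CPM in the other 3 libraries with that plasmid. Mrm1 stood at 13.1 CPM in Yy1 plasmid 47, against 11.6 to 11.8 CPM in the other 3. For Mgme1, empty plasmid 32 had 24.9 CPM and the other 3 empty plasmid libraries 28.1 to 28.5 CPM. Among marker genes, the alpha cell factor gene Irx2 had 133 CPM in Yy1 plasmid 48, against 140 to 141 CPM in the rest of its group. Spp1, a duct marker, had 7.43 CPM in Yy1 plasmid 46, against 5.62 to 5.88 CPM. Mafa, a beta cell factor gene, had 0.0972 CPM in empty plasmid 31, or at the limit of 3 counts, against 0.322 to 0.343 CPM in the other 3.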

How the results depend on the processing

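The count of 0 regulators called, the 0 called in each list and the regulators' median log2 fold change (0.0022 to 0.023) did not change, or moved by less than the median SE, under any setting run: 8 scalings, filters and tools, and each library left out. The number of all tested genes called was 82, with 174 when no filter on low counts was used and 54 with at least 1 CPM in 4 libraries, a filter that removes Ppargc1b. Directions of the regulators are not fixed, since their values lie near 0. Among 79 values of single regulators under other scalings, filters and tools, 1 had the other sign, Tfb1m with limma-voom (-0.0033), while Ppargc1b kept its sign but had 0.40 with limma-voom, beside 0.013. Among 80 values with 1 library left out, 17 had the other sign. Over the libraries left out, log2 fold changes ran from -0.0019 to 0.095 for Ppargc1a, from -0.38 to 0.58 for Ppargc1b, from -0.016 to 0.066 for Esrra, from -0.043 to 0.0096 for Nrf1 and from -0.036 to 0.0086 for Gabpa. They ran from -0.095 to 0.076 for Tfb1m, from -0.019 to 0.036 for Tfb2m and from -0.051 to 0.033 for Polrmt, while Pprc1 and Tfam stayed positive. The Ppargc1b value was -0.38 without empty plasmid 31 and 0.58 without empty plasmid 34. In the order of levels per length in empty plasmid libraries, 3 of the 10 regulators kept their place with the longest transcript and 4 with the longest coding transcript, chosen after seeing the data. The order was the same in Yy1 plasmid libraries. No paired analysis was possible because the groups share no sample numbers. Depth limits Ppargc1b most, with 91 counts in all 8 libraries.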
